A study of Mus musculus with 12 samples.

Results

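Hyaluronan synthesis and binding genes were followed in mouse stromal cells from 2 bone niches. The set was named by symbol, not by level: the synthases Has1, Has2 and Has3, the hyaluronidases Hyal1 and Hyal2, the hyaluronan-depolymerising factor Cemip, the proteoglycan Vcan and the link proteins Hapln1 and Hapln3, which make 9 of the 53819 entries of the count table. All 9 were present and all 9 passed the filter on low counts. Every library came from wild-type (WT) cells, and each of the 4 groups had 3 libraries. BM sorted were stromal cells grown on collagen I from whole marrow of both hind limbs and the pelvis, flow-sorted after the first passage as CD31-/CD45-/Ly6C-/F4/80- cells that carried CD51 and Sca-1. BM nonsorted were the same kind of culture taken at that passage with no sort. BAC depleted were bone-associated cells (BAC) released from hind-limb bone fragments by collagenase I, from which magnetic separation removed cells bearing CD45, Ly6C or F4/80. BAC nondepleted were such cells without that step. The labels give alpha MEM without ascorbic acid, serum and hypoxia as culture conditions for all samples. The sources used here do not give strain, age, pooling of animals or the time that BAC spent in culture.

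Hyaluronan is an unbranched, unsulfated sugar polymer that synthases at the plasma membrane extrude straight into the matrix from UDP-glucuronic acid and UDP-N-acetylglucosamine. Proteoglycans such as versican and aggrecan attach to it through a globular end domain, and link proteins clamp that attachment. In cartilage these aggregates hold water and resist compression, while in marrow hyaluronan and its receptor CD44 take part in anchoring blood-forming cells. Breakdown begins at the cell surface and ends in the lysosome.

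Total counts ran from 27937709 to 32164725 per library, so no group was short of depth. BAC depleted 1 stood apart: it held 43406 Xist counts and 0 Ddx3y counts, whereas each of the other libraries had at most 16 Xist counts and 72.7 to 244 CPM (counts scaled to library size) of the Y-linked Ddx3y, so each member call that uses BAC depleted is also given without it. The 10 stromal markers summed to between 27805 and 60505 CPM in every library. Summed macrophage markers (20 genes) were 18.6 to 50.5 CPM in BM sorted against 5687 to 6468 CPM in BM nonsorted, and 26.1 to 75.7 CPM in BAC depleted against 14189 to 16053 CPM in BAC nondepleted. Of these 20 genes, Aif1 was at 0 in all BM sorted libraries, and 9, among them Ptprc, C1qa and Tyrobp, were at 0 in all BAC depleted libraries. In such bulk samples, fewer cells of a type and less RNA per cell cannot be told apart.

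Between the niches matrix partners of hyaluronan differed, and no synthase passed the test. Vcan was higher and Hapln1 lower in marrow cells than in bone-associated cells, in the purified and in the unpurified pair of groups. On removal of other cells 1 of the 9 genes passed in BAC, Hyal1, which rose, and none in BM. In edgeR's quasi-likelihood test, with p-values adjusted by Benjamini-Hochberg over 15698 genes and called under 0.05, 0 of 9 passed in BM sorted against BM nonsorted, where 6.23% of all genes were called (0.166% higher and 6.06% lower). There, 0 of 9 had an unadjusted p under 0.05 and DESeq2 also called 0. In BAC depleted against BAC nondepleted 1 of 9 was called, against 37.3% of all genes (17.4% higher, 19.9% lower). In BM sorted against BAC depleted 2 of 9 were called, against 47.4% (22.9% higher, 24.6% lower), and in BM nonsorted against BAC nondepleted 2 of 9, against 31.7% (14.9% higher, 16.8% lower). Each of these comparisons shares libraries with others, so they do not repeat one another independently. The members' share of calls was below that of all genes in each of the 4 comparisons.

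Levels were fully separated between the groups, with no overlap of libraries, for 3 of 9 genes on sorting (28.7% of all genes), 2 on depletion (46.3%), 4 between BM sorted and BAC depleted (52.8%) and 3 between BM nonsorted and BAC nondepleted (56%). The median log2 fold change of the 9 genes was 0.15, 0.72, 0.05 and 0.26 in these comparisons, against 0.00060, 0.048, -0.016 and -0.0075 over all tested genes. Marrow and bone-associated groups also differ in the source tissue, the way of isolation and, between the purified groups, in flow sorting against magnetic depletion. The unpurified groups differ in summed macrophage markers as well, as given above. These cannot be told apart from the niche.

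**Figure D1:**
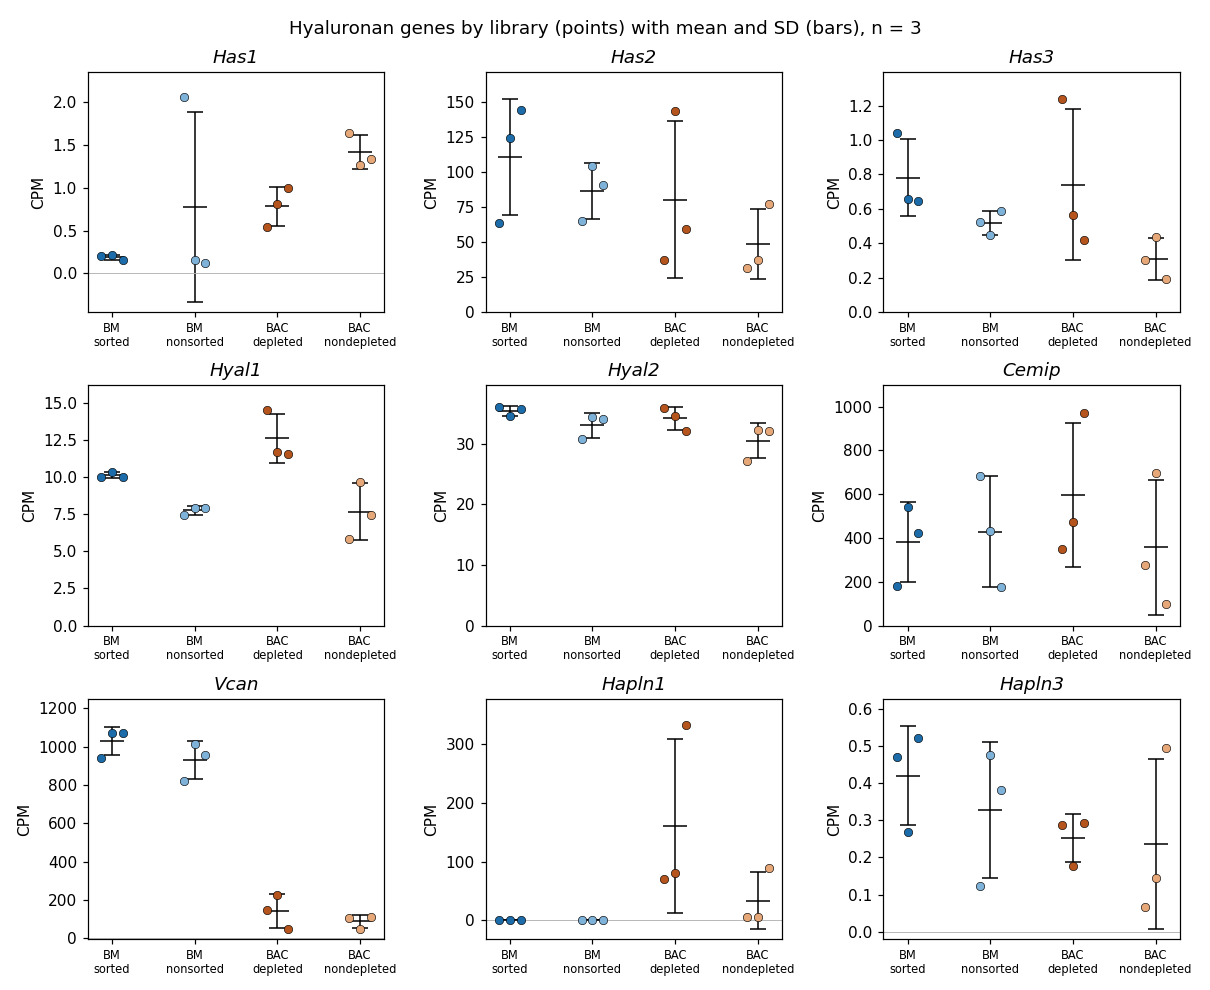
Level of each of the 9 hyaluronan genes in CPM (linear axis, own scale per gene) in the 3 libraries of BM sorted, BM nonsorted, BAC depleted and BAC nondepleted; points are libraries, bars the mean and SD. Vcan and Hapln1 separate BM from BAC, while Hyal2 stays between 27.2 and 36.1 CPM in all 12 libraries.

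Among the synthases, Has2, the main hyaluronan synthase of mesenchymal cells, supplied nearly all of the synthase transcript. Per kilobase of exon it made up 94.7% to 99.6% of the summed level of Has1, Has2 and Has3 in each of the 12 libraries. Has2 was at 63.8, 124 and 144 CPM in BM sorted, at 64.9, 104 and 90.4 CPM in BM nonsorted, at 37.4, 143 and 59.2 CPM in BAC depleted, and at 31.4, 36.9 and 77.3 CPM in BAC nondepleted. Group means fell in the order BM sorted (110 ± 41.6 CPM, SD, n = 3), BM nonsorted (86.4 ± 19.9), BAC depleted (80.0 ± 56.0) and BAC nondepleted (48.5 ± 25.0), and every neighbouring pair of groups overlapped. None of the differences passed the test: 0.35 ± 0.51 on the log2 scale (approximate SE, adjusted p = 0.857) for BM sorted minus BM nonsorted, 0.72 ± 0.52 (0.295) for BAC depleted minus BAC nondepleted, 0.47 ± 0.51 (0.481) for BM sorted minus BAC depleted and 0.83 ± 0.52 (0.24) for BM nonsorted minus BAC nondepleted. The 95% interval of the last, -0.36 to 2.03, leaves room for a sizeable difference. Without BAC depleted 1 the depletion value was 1.07 (adjusted p = 0.129). With each library left out in turn it ran from -0.0097 to 1.22 and was called in 0 of 12 fits.

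An antisense transcript, Has2os, lies over Has2, and the strand setting of the counting is not given, so reads of the pair cannot be told apart. Has2os had 23 to 144 counts per library, few beside the 935 to 4693 counts of Has2. It did pass the test: it was higher in BAC depleted (3.94 ± 1.86 CPM) than in BAC nondepleted (1.61 ± 0.379 CPM), with a log2 fold change of 1.29 ± 0.34 (adjusted p = 0.0147), and lower in BM sorted (0.888 ± 0.0189 CPM) than in BAC depleted, by -2.14 ± 0.35 (0.0009).

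Has1 was near the limit of detection, with 5 to 7 counts in BM sorted libraries, 67, 5 and 4 in BM nonsorted 1, 2 and 3, 17 to 24 in BAC depleted and 35 to 49 in BAC nondepleted. BM nonsorted 1 was the single high marrow library. BM sorted lay below BAC depleted in all libraries (0.188 ± 0.0305 against 0.785 ± 0.231 CPM), by -2.03 ± 0.93 on the log2 scale (adjusted p = 0.0966). That difference was called without BM nonsorted 1, which enters only the shared spread (-2.03 ± 0.35, adjusted p = 0.00179), and in a fit of the pair of groups alone (-2.03 ± 0.39, 0.0113). BM nonsorted against BAC nondepleted was -0.86 ± 0.83 (0.451) with that library and -3.33 ± 0.42 (0.00217) without it. The gene overlaps Spaca6, which had at least 203 counts in every library, so the few Has1 reads are uncertain.

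Has3 was as scarce, with 21 to 31 counts in BM sorted, 14 to 20 in BM nonsorted, 10 to 39 in BAC depleted and 5 to 12 in BAC nondepleted libraries. Its depletion value was 1.26 ± 0.47 (adjusted p = 0.0564, 95% interval 0.18 to 2.33), and BAC depleted 1 was the high library at 1.24 CPM. Without BAC depleted 1 the value was 0.66 (0.242), and without BAC depleted 3 it was 1.52 ± 0.46 (0.0283). Has3 on sorting was 0.59 ± 0.44 (0.646) and in the other comparisons did not pass the test either.

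**Figure D2:**
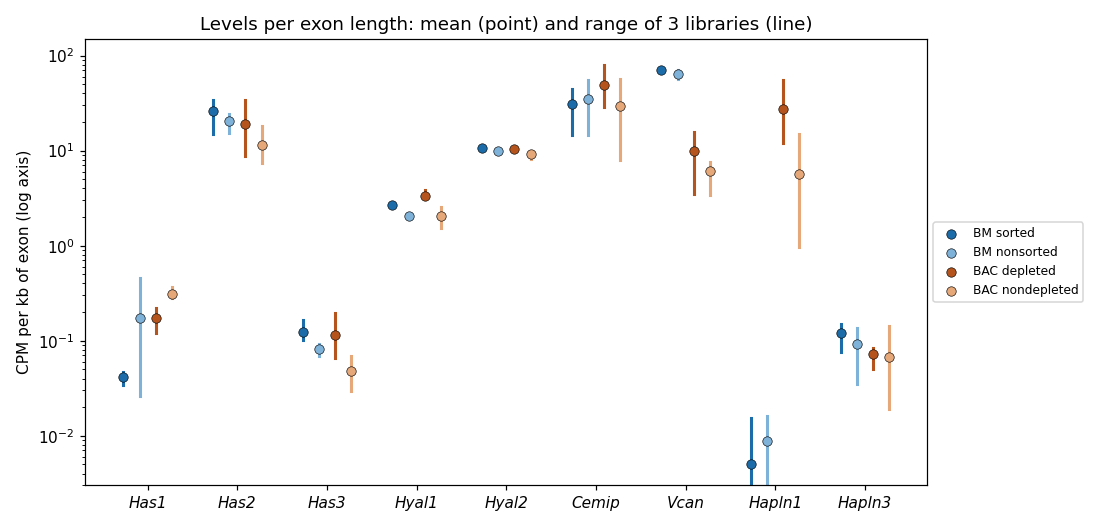
Level per exon length (CPM per kilobase, log axis) of the 9 genes in the 4 groups; points are means and lines the range of 3 libraries, cut at the lower edge where a Hapln1 library had 0 counts. Vcan led in marrow groups (71.2 in BM sorted, 64.4 in BM nonsorted) and Cemip in bone-associated groups (48.8 in BAC depleted, 29.3 in BAC nondepleted).

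Of the genes that break hyaluronan down, Hyal1, a lysosomal hyaluronidase, was the single member that rose on depletion. It was at 14.5, 11.7 and 11.6 CPM in BAC depleted, against 5.84, 9.67 and 7.47 CPM in BAC nondepleted. The lowest depleted library lay above the highest nondepleted one, and the log2 fold change was 0.72 ± 0.17 (adjusted p = 0.00938, 95% interval 0.32 to 1.12). Without BAC depleted 1 it was 0.61 ± 0.18 (0.0281), but fitted on these groups alone it missed the threshold (0.74 ± 0.23, 0.0655). Summed macrophage markers ran the other way between these groups, as given above, and their part in the result was not tested.

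On sorting, Hyal1 was at 9.97, 10.3 and 10.0 CPM in BM sorted, against 7.41, 7.95 and 7.90 CPM in BM nonsorted. These groups did not overlap either, yet the difference of 0.38 ± 0.17 did not pass (adjusted p = 0.342). The sorting effect minus the depletion effect was -0.34 ± 0.25 (0.428), so the effects were not shown to differ. Hyal1 overlaps Naa80, an acetyltransferase gene on the same strand, which also rose on depletion, to 21.7 ± 5.72 CPM in BAC depleted against 13.3 ± 0.527 CPM in BAC nondepleted (0.70 ± 0.16, adjusted p = 0.0072). Hyal1 also overlaps Hyal3, which had 3 to 33 counts per library. The sources used here do not say how reads in the shared stretches were assigned, so the Hyal1 value is uncertain to that extent.

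Hyal2, a hyaluronidase anchored at the cell surface, varied least of the 9. Its means were 35.4 ± 0.796 CPM in BM sorted, 33.0 ± 2.03 in BM nonsorted, 34.2 ± 1.92 in BAC depleted and 30.5 ± 2.90 in BAC nondepleted. No comparison passed (log2 differences 0.05 to 0.16), and the highest upper bound of a 95% interval, on depletion, was 0.38.

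Cemip, a secreted hyaluronan-binding protein needed for depolymerisation by fibroblasts, varied widely within every group. BM sorted libraries were at 179, 541 and 424 CPM, BM nonsorted libraries at 682, 430 and 176 CPM, BAC depleted libraries at 350, 472 and 970 CPM and BAC nondepleted libraries at 278, 698 and 98.2 CPM. The highest library of a group exceeded the lowest by 3.02, 3.86, 2.77 and 7.11 times in these groups, and all groups overlapped. Log2 differences were -0.17 ± 0.72 (adjusted p = 0.963) on sorting, 0.74 ± 0.73 (0.449) on depletion, -0.65 ± 0.73 (0.489) between BM sorted and BAC depleted and 0.26 ± 0.72 (0.809) between BM nonsorted and BAC nondepleted. With such spread, several-fold differences between groups were not detectable: the depletion interval ran from -0.94 to 2.42. Per kilobase Cemip made up 40.7% to 86.1% of the summed level of Cemip, Hyal1 and Hyal2 in a library.

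**Figure D3:**
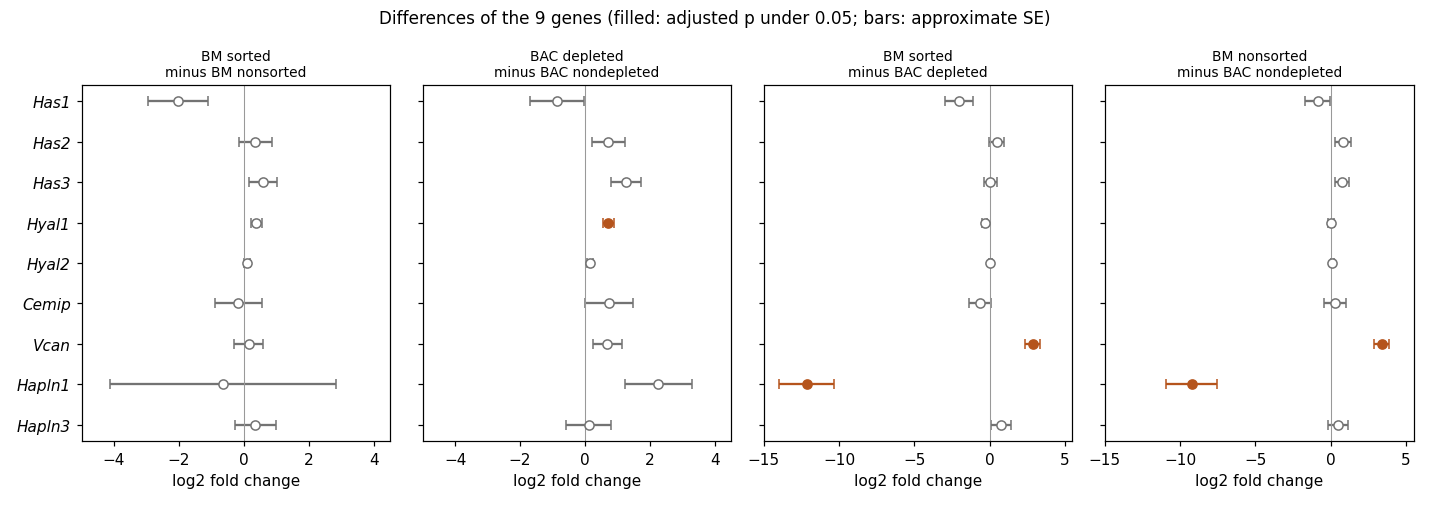
Log2 fold change of the 9 genes in the 4 comparisons, with the approximate SE as bars; filled points passed an adjusted p of 0.05, and the niche panels have a wider axis. Hyal1 passed on depletion (0.72), and Vcan (2.85 and 3.40) and Hapln1 (-12.15 and -9.25) passed between the niches.

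Vcan encodes versican, the large hyaluronan-binding chondroitin sulfate proteoglycan of loose and provisional matrix, and Hapln1 encodes the link protein of cartilage. In the RefSeq gene order they are neighbouring coding genes on mouse chromosome 13 whose 3′ ends face each other. Their promoters are printed because the genes moved in opposite directions between the niches. Each runs 5′ to 3′ on the gene's own strand from 250 bases before to 50 bases after the RefSeq start (build GRCm38.p6, not the build of the counts): chr13:89742463-89742762, minus strand, for Vcan and chr13:89540386-89540685, plus strand, for Hapln1. Capitals mark matches to the motifs given below.
Vcan: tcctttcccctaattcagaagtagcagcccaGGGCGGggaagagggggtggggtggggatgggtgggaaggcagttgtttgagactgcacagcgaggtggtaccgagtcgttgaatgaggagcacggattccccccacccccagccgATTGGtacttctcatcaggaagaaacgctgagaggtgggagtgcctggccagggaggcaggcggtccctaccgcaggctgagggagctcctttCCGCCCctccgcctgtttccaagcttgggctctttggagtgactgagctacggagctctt
Hapln1: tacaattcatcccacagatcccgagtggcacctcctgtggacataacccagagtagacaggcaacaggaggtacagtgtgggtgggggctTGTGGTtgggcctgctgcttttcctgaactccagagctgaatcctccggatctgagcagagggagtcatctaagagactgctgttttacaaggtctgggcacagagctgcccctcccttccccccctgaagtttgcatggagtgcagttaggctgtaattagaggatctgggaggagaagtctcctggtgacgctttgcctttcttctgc

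The motifs, read on both strands, were GGGCGG of SP and KLF factors, the CCAAT box, the RUNX core TGTGGT, the SOX core ATTGTT, the TCF and LEF core CTTTGA, the Fos and Jun site TGANTCA and the TATAAA box. Vcan held 2 copies of GGGCGG, found in 35.7% of 32851 RefSeq promoters, and 1 of CCAAT (37.4%). Hapln1 held 1 copy of TGTGGT (16.8%) and none of these others. The marked matches do not overlap one another. The remaining motifs (7.8% to 16% of promoters) were not in either window, and the GC content was 61.0% for Vcan and 54.3% for Hapln1, against a median of 52.7%. Of the 9 genes 7 had an entry in this table.

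Vcan was at 943, 1072 and 1073 CPM in BM sorted, against 150, 226 and 50.7 CPM in BAC depleted. In the unpurified cells it was at 821, 1015 and 956 CPM in BM nonsorted, against 106, 49.0 and 110 CPM in BAC nondepleted. All 6 marrow libraries stood above all 6 bone-associated ones. The 5 smooth muscle markers differed the same way, with sums of 5572, 6220 and 7078 CPM (lowest, median, highest) in BM sorted against 362, 448 and 1129 CPM in BAC depleted, and 4703, 5955 and 6634 CPM in BM nonsorted against 446, 985 and 1040 CPM in BAC nondepleted, with none of the 5 at 0 in a whole group, and their part in the Vcan level was not tested. The log2 fold change was 2.85 ± 0.48 (adjusted p = 0.00108, 7.23-fold) for BM sorted minus BAC depleted and 3.40 ± 0.50 (0.00145, 10.5-fold) for BM nonsorted minus BAC nondepleted. Without BAC depleted 1 the first of these was 2.89 ± 0.60 (0.00429).

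Vcan did not pass on either purification. Means were 1030 ± 74.9 CPM in BM sorted and 931 ± 99.6 CPM in BM nonsorted (0.15 ± 0.45, adjusted p = 0.948), and 142 ± 88.1 CPM in BAC depleted and 88.2 ± 34.0 CPM in BAC nondepleted (0.69 ± 0.45, 0.255). BAC depleted 3 was the low library of its group, and without it the depletion difference was called (1.09 ± 0.31, 0.0224). That library also devoted 8.11% of its counts to Thbs1 and had the highest cartilage marker sum, whose part in its Vcan level was not tested.

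Hapln1 showed the reverse pattern and was nearly silent in marrow. BM sorted libraries held 0, 3 and 0 counts and BM nonsorted libraries 2, 3 and 0, against 2218, 2264 and 7939 counts in BAC depleted and 186, 158 and 2331 in BAC nondepleted. In CPM, BAC depleted was at 70.5, 80.1 and 331 and BAC nondepleted at 6.24, 5.74 and 88.8. No marrow library came near a bone-associated one. Pooled over libraries and relative to TMM-scaled library sizes, Hapln1 was 4738 times higher in BAC depleted than in BM sorted (95% counting interval 1621 to 22978, from 12421 and 3 counts) and 628 times higher in BAC nondepleted than in BM nonsorted (269 to 1937, from 2675 and 5 counts). Both ratios pool unlike libraries: BAC depleted 3 and BAC nondepleted 3 held most of the counts of their groups. The fitted log2 values, which depend on the prior count this close to 0, were -12.15 ± 1.83 (adjusted p = 0.000579) for BM sorted minus BAC depleted and -9.25 ± 1.695 (0.00375) for BM nonsorted minus BAC nondepleted. Without BAC depleted 1 the first was -12.51 ± 1.89 (0.000946), and without BAC nondepleted 3 the second was -6.77 ± 1.03 (0.00308).

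Within bone-associated cells Hapln1 was 160 ± 148 CPM in BAC depleted and 33.6 ± 47.8 CPM in BAC nondepleted, and the difference of 2.26 ± 1.03 did not pass (adjusted p = 0.109). BAC nondepleted 3 lay within the range of the depleted libraries. Without it the value was 4.73 ± 0.81 (0.00252), and without BAC depleted 1 it was 2.62 (0.093). In marrow both groups had too few counts for a fold.

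The 13 cartilage markers, like the Hapln1 mean, were higher in BAC depleted than in BAC nondepleted. They summed to 9978 CPM at the lowest, 11789 at the median and 36173 at the highest in BAC depleted, against 1761, 4416 and 6073 CPM in BAC nondepleted. Single libraries did not all go along. BAC nondepleted 3, with the sum of 6073 CPM, held 88.8 CPM of Hapln1. BAC depleted 1 and 2, with sums of 11789 and 9978 CPM, held 70.5 and 80.1 CPM. In marrow the sums were not low, at 1718, 4632 and 4886 CPM in BM sorted and 3502, 4637 and 4656 CPM in BM nonsorted, with Matn1 at 0 in all BM sorted libraries and Snorc at 0 in all BAC nondepleted ones. The list was not uniform: Col2a1, the main cartilage collagen, was at 1001 to 3942 CPM in the marrow libraries, while Acan was at 0.509 to 2.13 CPM there and Comp averaged 23.0 CPM in BM sorted and 8.10 CPM in BM nonsorted. In bone-associated cells Comp averaged 6886 CPM in BAC depleted and 1966 CPM in BAC nondepleted. The 3 joint-lining markers summed to 102, 148 and 981 CPM in BAC depleted and 85.6, 168 and 742 CPM in BAC nondepleted, against 23.3, 36.6 and 43.2 CPM in BM sorted and 17.7, 34.5 and 68.6 CPM in BM nonsorted. The part of either list in the Hapln1 level was not tested.

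Set per kilobase of exon, the order of the pair depended on the group. Vcan was at 71.2 ± 5.18 in BM sorted and 64.4 ± 6.89 CPM per kilobase in BM nonsorted, against 9.85 ± 6.09 in BAC depleted and 6.10 ± 2.35 in BAC nondepleted. Hapln1 reached 27.2 ± 25.0 CPM per kilobase in BAC depleted and 5.69 in BAC nondepleted, against 0.00508 in BM sorted and 0.00886 in BM nonsorted. The mean of Vcan was below that of Hapln1 in BAC depleted and above it in the other groups. The level of Vcan divided by that of Hapln1 was 0.869, 1.15 and 0.0626 in BAC depleted 1, 2 and 3, and 6.91, 3.48 and 0.505 in BAC nondepleted 1, 2 and 3. In the 3 marrow libraries with any Hapln1 count the ratio was at least 4344.

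**Figure D4:**
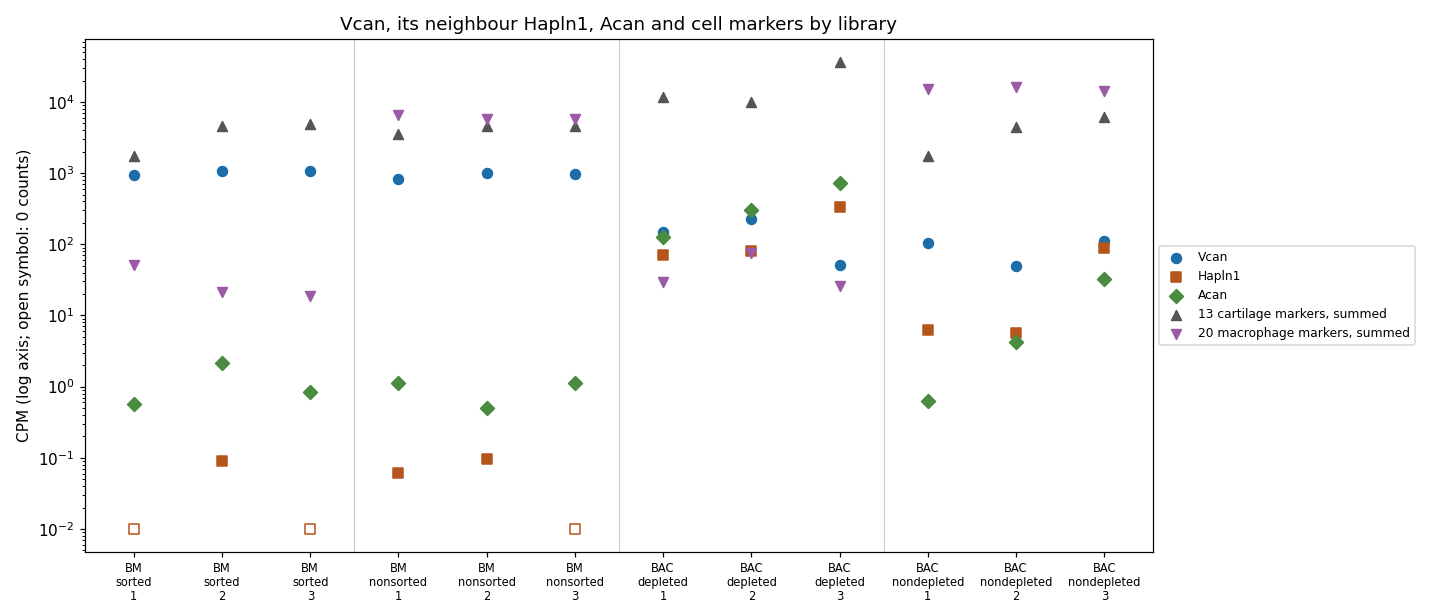
Level in CPM (log axis; open squares: 0 counts) of Vcan, Hapln1 and Acan and of 2 summed marker lists in each of the 12 libraries. Vcan is highest in the 6 marrow libraries, where Hapln1 has at most 3 counts; Hapln1 reaches 331 CPM in BAC depleted 3, where the cartilage markers sum to 36173 CPM.

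Hapln3, a link protein of wider tissue distribution, was scarce everywhere, with 9 to 17 counts in BM sorted, 4 to 15 in BM nonsorted, 5 to 9 in BAC depleted and 2 to 13 in BAC nondepleted libraries. It passed in no comparison (log2 differences 0.11 to 0.73, adjusted p from 0.39 to 0.914).

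The effect of sorting in marrow was then set against the effect of depletion in BAC. Of the 9 genes 0 differed by edgeR's test (adjusted p 0.428 to 0.907), 0 had an unadjusted p under 0.05 and DESeq2 called 0, where 8.06% of all genes were called (5.08% higher, 2.99% lower). The median difference was -0.55, against -0.058 over all genes.

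By the root mean square difference of centred log2 CPM over the 12 libraries, each member was matched to its nearest named genes among all tested ones. For Vcan these were Fbxo32 (0.448), Nkain1 (0.472) and Dpysl3 (0.507), and Dpysl3 averaged 830 CPM in BM sorted, 793 in BM nonsorted, 122 in BAC depleted and 79.0 in BAC nondepleted. For Hapln1 they were Dcn (1.19), Comp (1.37) and Aldh1a1 (1.50), a looser match. Dcn, which encodes the small proteoglycan decorin, averaged 1.90 CPM in BM sorted, 0.614 in BM nonsorted, 802 in BAC depleted and 728 in BAC nondepleted. Hyal1 lay nearest to Foxo1 (0.145), Hyal2 to R3hdm4 (0.0742), Has2 to Myrf (0.348) and Cemip to Gpr39 (0.494). The scarce genes Has1, Has3 and Hapln3 lay nearest to Car6 (0.606), Doc2g (0.233) and Efna4 (0.403). Among the members themselves the closest pair was Hyal1 and Hyal2 (0.275) and the farthest Vcan and Hapln1 (6.23).

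Other genes of the pathway were counted by role, from the sugar precursors to the receptors. Over all genes, 6.23% were called on sorting and 37.3% on depletion. The share was 47.4% between BM sorted and BAC depleted and 31.7% between BM nonsorted and BAC nondepleted. The small lists below are to be read beside these shares. Of 6 tested enzymes that make the UDP-sugars, 0 were called on sorting (median 0.050), where 0 had an unadjusted p under 0.05, DESeq2 called 0, and the most abundant, Gfpt1, averaged 220 CPM in BM sorted, against 182 CPM in BM nonsorted. On depletion 2 rose, none fell and 4 did not pass (list median 0.38). These were the hexosamine gatekeepers Gfpt1 (0.59, adjusted p = 0.0189) and its paralogue Gfpt2 (1.46 ± 0.31, 0.00456), the second at 25.1 CPM in BAC depleted against 9.07 CPM in BAC nondepleted. Between BM sorted and BAC depleted Pgm3, a later hexosamine enzyme, was higher (0.77, 0.00431) and Gfpt2 lower (-2.59 ± 0.32, 0.000195), and 4 did not pass (median 0.064). Between BM nonsorted and BAC nondepleted Gfpt1 (0.63) and Pgm3 (0.91) were higher and Gfpt2 lower (-1.16), with 3 not passing (median 0.14). Gfpt1 lost its call on depletion without BAC depleted 3, BAC nondepleted 1 or BAC nondepleted 2 (0.38, 0.49 and 0.55, adjusted p 0.0535 to 0.0779) and with only the groups compared (0.0808), and between the unpurified groups without 1 of 4 libraries (0.0527 to 0.0742). Gfpt2 in the unpurified pair was lost without BM nonsorted 2, BM nonsorted 3 or BAC nondepleted 2 (0.061 to 0.0735). Ugp2, which makes UDP-glucose, was also called when BAC depleted 1 was left out, by 0.88 on depletion (0.00861) and by -0.93 between BM sorted and BAC depleted (0.00493). Gnpnat1 was too scarce to test.

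Of 8 other breakdown genes 4 were tested, and Hyal4, Hyal5, Hyal6 and Spam1 had no counts in any library. Hexa and Gusb, the second encoding beta-glucuronidase, act in the lysosome on sugar chains already cut short. Both fell on sorting (-0.69 and -1.09, list median -0.78) and both fell on depletion (-0.98 and -1.80, median -0.27), with the remaining 2 not passing in either case. Gusb averaged 96.5 CPM in BM sorted against 205 CPM in BM nonsorted, and 84.5 CPM in BAC depleted against 294 CPM in BAC nondepleted. Summed macrophage markers were lower in BM sorted and BAC depleted too, as given above, and their part was not tested. Between niches Cemip2, a cell-surface relative of Cemip, was higher in BM sorted (311 CPM) than in BAC depleted (128 CPM), by 1.28 ± 0.22 (adjusted p = 0.00117), and by 1.58 between BM nonsorted and BAC nondepleted. Hexa was lower in both of these (-0.79 and -1.08), as was Gusb in the unpurified pair (-0.52). In that pair summed macrophage markers were 5687 to 6468 CPM in BM nonsorted against 14189 to 16053 CPM in BAC nondepleted. Their part in these Hexa and Gusb values was not tested. Hyal3, under 5 CPM in all groups and so outside the rule for naming, was also lower in BM sorted than in BAC depleted (-2.16). Its few reads are uncertain, since the gene overlaps Hyal1. The list medians were -0.30 between the purified and -0.47 between the unpurified groups. Cemip2 was called on depletion as well when BAC depleted 1 was left out (0.69, adjusted p = 0.00293).

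Of 5 tested receptors, 1 fell on sorting and 4 did not pass (median -0.078): Stab1, a scavenger receptor of macrophages and sinusoidal endothelium, was at 1.69 CPM in BM sorted against 998 CPM in BM nonsorted (-9.20 ± 0.36, adjusted p = 7.5e-08). On depletion 3 fell and 2 did not pass (median -2.19). These were Stab1, at 0.279 CPM in BAC depleted against 1838 CPM in BAC nondepleted, Hmmr, a mitosis-linked hyaluronan receptor (-2.67 ± 0.58, 0.00566), and Cd44, the principal hyaluronan receptor. Cd44 was at 99.6, 84.7 and 96.4 CPM in BAC depleted, against 373, 344 and 563 CPM in BAC nondepleted. All depleted libraries were below all nondepleted ones (-2.19 ± 0.30, 0.0004). In marrow Cd44 was at 111, 183 and 200 CPM in BM sorted, against 452, 268 and 240 CPM in BM nonsorted, a difference that did not pass with edgeR but did with DESeq2 (-0.94, adjusted p = 0.031). Hmmr on depletion missed the threshold with only the groups compared (0.056). Summed macrophage markers were 26.1 to 75.7 CPM in BAC depleted against 14189 to 16053 CPM in BAC nondepleted, and 18.6 to 50.5 CPM in BM sorted against 5687 to 6468 CPM in BM nonsorted, and their part in the Stab1 and Cd44 values was not tested. The 6 cell-cycle markers summed to 20.3 to 90.8 CPM in BAC depleted against 296 to 360 CPM in BAC nondepleted, and their part in the Hmmr value was not tested.

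Between BM sorted and BAC depleted, where 47.4% of all genes were called, all 5 tested receptors were called (median 0.82). Cd44 was higher (0.82, adjusted p = 0.042), as was Hmmr, at 49.7 CPM in BM sorted against 4.06 CPM in BAC depleted (3.61 ± 0.60, 0.001), and Layn, layilin, was lower (-0.65, 0.0219). The 6 cell-cycle markers summed to 446 to 612 CPM in BM sorted against 20.3 to 90.8 CPM in BAC depleted. Their part in this Hmmr value was not tested. Stab1 (2.56) and Stab2 (-4.09) also passed, but at under 5 CPM in both groups, and are named although outside the rule. Between BM nonsorted and BAC nondepleted 2 fell, Stab1 (-0.88) and Stab2 (-3.36), and 3 did not pass (median -0.42). Summed macrophage markers were lower in BM nonsorted than in BAC nondepleted too, as given above, and their part was not tested. The Cd44 call between BM sorted and BAC depleted was lost without BM sorted 2 or 3, BM nonsorted 2, any 1 of the BAC depleted libraries or BAC nondepleted 1 (0.66 to 0.86, adjusted p 0.0504 to 0.142). That of Layn was lost without BM sorted 2 or 3 or BAC depleted 1 or 2 (0.059 to 0.0754), and that of Stab1 in the unpurified pair without BM nonsorted 2 or 3 or BAC nondepleted 1 or 2 (0.0617 to 0.0848). Between the purified groups Cd44 also missed the threshold with no low-count filter (0.0566) and with the replicate block (0.0641). Layn did so with only the groups compared (0.0506). Lyve1 was not tested.

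Of 16 other hyaluronan-binding matrix genes 10 were tested. Acan, the cartilage proteoglycan aggrecan, was at 126, 303 and 729 CPM in BAC depleted, against 0.638, 4.18 and 32.9 CPM in BAC nondepleted. It rose on depletion by 4.95 ± 1.23 (adjusted p = 0.0107). In BM sorted it was at 0.571, 2.13 and 0.827 CPM, which put it below BAC depleted by -8.34 ± 1.46 (0.00126), and in BM nonsorted it was below BAC nondepleted by -3.76 ± 1.25 (0.0432) with overlapping libraries. Acan on depletion missed the threshold with only the groups compared (adjusted p = 0.0666), and in the unpurified pair it did so without any 1 of 9 libraries, most of all without BAC nondepleted 3 (-1.37, 0.309). In that pair it was also lost with no low-count filter (0.126), with the replicate block (0.089) and with only the groups compared (0.0745). Acan is itself among the 13 cartilage markers.

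On depletion Itih2, which encodes a heavy chain that can be transferred onto hyaluronan, fell by -2.14 ± 0.65 (adjusted p = 0.0259) with overlapping libraries. Itih2 was also lower in BM nonsorted than in BAC nondepleted (-2.57 ± 0.66, 0.0156). Susd5, a gene with a hyaluronan-binding link domain, was lower in BM sorted than in BAC depleted (-3.70 ± 1.24, 0.0321). Itih2 lost its call on depletion without BAC depleted 1 or BAC nondepleted 1 or 2 (0.0644 to 0.0795), and in the unpurified pair without BM nonsorted 1 or 2 or BAC nondepleted 1 (0.0511 to 0.0577). Susd5 lost its call without any 1 of the BM sorted libraries or BAC depleted 3 (0.0757 to 0.13). With no low-count filter Susd5 (0.103) and, on depletion, Itih2 (0.0742) missed the threshold too. So did Susd5 with the replicate block (0.0629) and Itih2 on depletion with only the groups compared (0.114). In all, 0 rose and 1 fell on sorting (median 0.31), 1 rose and 2 fell on depletion (0.070), 0 rose and 2 fell between BM sorted and BAC depleted (-0.38), and 0 rose and 3 fell between BM nonsorted and BAC nondepleted (-0.98). The single gene that fell on sorting, and 1 of those falling on depletion and between the unpurified groups, was Ambp, which stayed under 5 CPM.

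Of 8 versican-cleaving proteases and fibulin partners, 0 were called on sorting (median 0.28). There 2 had an unadjusted p under 0.05, DESeq2 called 0, and the most abundant, Fbln2, averaged 2891 CPM in BM sorted, against 2192 CPM in BM nonsorted. On depletion the proteases Adamts1 (1.81 ± 0.44, adjusted p = 0.00999) and Adamts9 (1.53, 0.0179) rose and Adamts4 fell (-0.93, 0.0124), with 5 not passing (median 0.71). Between BM sorted and BAC depleted the matrix protein fibulin-2, from Fbln2, was higher, at 2891 CPM in BM sorted against 306 CPM in BAC depleted (3.24 ± 0.69, 0.00375). Adamts4 was higher too (1.19, 0.00266), Adamts1 was lower (-1.82, 0.0074), and Adamts15 was lower with overlapping libraries (-5.13, 0.0415), leaving 4 that did not pass (median -0.72). Between BM nonsorted and BAC nondepleted 1 of 8 passed (median -0.31): Adamts15, with 1 count in BM nonsorted and 297 in BAC nondepleted. Its ratio on TMM-scaled library sizes was 349 (95% counting interval 62.1 to 13826), higher in BAC nondepleted. That ratio pools unlike libraries: BAC nondepleted 1, 2 and 3 held 177, 118 and 2 counts, the last near the marrow level. Adamts15 lost its call without any 1 of 7 libraries in this comparison and any 1 of 8 between BM sorted and BAC depleted, where it was -2.48 (0.228) without BAC depleted 2. With no low-count filter Adamts15 was lost in both (0.133 and 0.122), and with only the groups compared it was lost between BM sorted and BAC depleted (0.0863). Fbln2 was called on depletion without BAC depleted 2 (-3.10, 0.000394). Adamts4 missed the threshold on depletion with only the groups compared (0.0713), and Adamts9 with no low-count filter (0.0513).

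**Figure D5:**
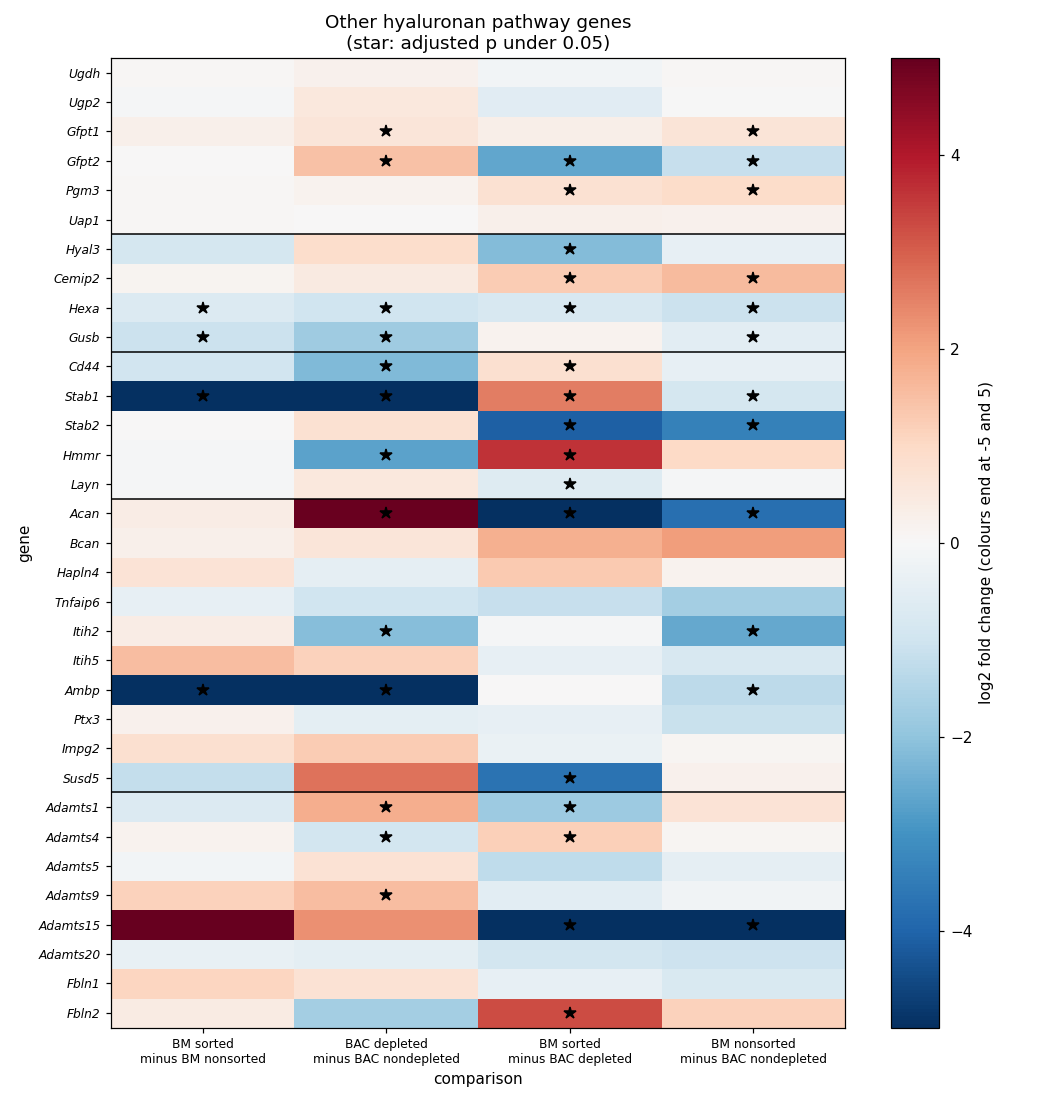
Log2 fold change (colour, ending at -5 and 5) of the tested pathway genes in 4 comparisons; a star marks an adjusted p under 0.05, and lines separate, from top to bottom, precursor enzymes, other breakdown genes, receptors, other binding matrix genes, and versican proteases with partners. Hexa and Gusb carry stars on sorting and on depletion, while no precursor enzyme does on sorting.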

How the data were processed

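RNA from 12 libraries, 3 per group, was made with a low-input kit, per the labels' protocols. The authors deposited 1 table of raw read counts per gene. Per the submitters' processing notes, STAR 2.7.9a, Subread 2.0.1 (featureCounts) and MultiQC 1.7 were used with build GRCm39. The sources used here give neither an annotation release nor a strand setting, so overlapping and antisense genes are uncertain. Rows with no symbol took 0.013% to 0.0297% of a library.

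From the deposited counts, edgeR 4.0.16 in R 4.3.3 fitted 1 mean per group over all 12 libraries, with TMM scaling, filterByExpr (15698 of 53819 entries tested), robust quasi-likelihood dispersions and 8 residual degrees of freedom. Benjamini-Hochberg adjustment ran over all tested genes, and a gene was called, and said to rise or fall, at an adjusted p under 0.05. The SE is the size of a log2 fold change over the root of its F statistic, and the 95% intervals built on it are approximate as well. CPM used TMM-scaled library sizes, with mean ± SD over 3 libraries. Intervals on counts cover counting error only. Levels per kilobase used exon lengths of GENCODE M21, an annotation of another build (GRCm38), so these lengths are approximate. The scripts were tested on simulated data.

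The 9 members and the pathway and marker lists were chosen with earlier results of these data known. All members were named in every comparison, and each pathway list by at most 3 rises and 3 falls per comparison with at least 5 CPM in the higher group, or else by its most abundant member. Genes outside that rule were named after their values were seen. One gene of the breakdown list is not reported here and is in no count of that list. Nearest genes used a prior count of 2 and left out predicted models and pseudogenes. The labels number the libraries of a group without saying whether these were separate animals or cultures, so p-values reflect only the spread among these samples, and that may be technical. Alternatives were DESeq2 1.42.0, other scalings and filters, a replicate block, a fit of only the groups compared, and each library left out in turn.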

Additional observations from a re-analysis of the deposited data

Results flagged for a closer look

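For 3 of the pathway genes the change on sorting in marrow differed from the change on depletion in bone-associated cells, by edgeR's test of that difference with adjustment over all genes. Gusb differed by 0.71 ± 0.17 on the log2 scale (adjusted p = 0.0337), since it fell by 1.09 on sorting and fell by 1.80 on depletion, but missed the threshold without any 1 of 6 libraries (0.0733 to 0.0934). Stab1 differed by 3.44 ± 0.42 (0.00237), since it fell by 9.20 on sorting and fell by 12.64 on depletion. The size of that difference rests on few reads, 36, 70 and 58 in BM sorted and 14, 4 and 6 in BAC depleted. Adamts1 differed by -2.49 ± 0.62 (0.0382), with a rise of 1.81 on depletion and -0.67 on sorting, the second not called, and missed the threshold without any 1 of 9 libraries (0.0586 to 0.0897). With the replicate block Gusb (0.0619) and Adamts1 (0.0715) missed it too, as did Adamts1 with no low-count filter (0.0994). The groups of 3 libraries are too small for a test of single outlying samples.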

How the results depend on the processing

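No member reversed its direction where called, and Vcan and Hapln1 between the niches were called under each alternative scaling, filter and test and in 12 of 12 fits that left out 1 library. In those fits Vcan ran from 2.44 to 3.36 (BM sorted minus BAC depleted) and from 3.11 to 3.59 (BM nonsorted minus BAC nondepleted), Hapln1 from -15.23, without BM sorted 2, the only library of its group with Hapln1 counts, to -11.07, without BAC depleted 3, and from -9.94, without BM nonsorted 2, to -6.77, without BAC nondepleted 3. Hyal1 on depletion was called in 12 of 12 of them (0.55 to 0.91). Members called on depletion numbered 1, but 2 with upper quartile scaling, where Has3 joined (1.36, adjusted p = 0.0483) and the median of all genes shifted to 0.13, 2 with the replicate block, where Hapln1 joined (2.95 ± 0.64, 0.00942), and 0 with only the groups compared, with 1 to 3 when a library was left out. The cause of these moves was not tested. The numbers were not shown to pair the libraries: correlations of same-numbered deviations ran from -0.223 to 0.237. Between BAC depleted and BAC nondepleted they were 0.237, 0.0439 and 0.0711, against -0.157 to 0.0873 for unlike numbers. BAC depleted 1 held 43406 Xist and 0 Ddx3y counts, against 2 and 4111 in BAC nondepleted 1. Number 1 thus does not join libraries of the same animal, though the replicate block treats them as a pair. For numbers 2 and 3 pairing was not settled. Over all genes the difference of the effects gave 1266 calls, but 2450 with the DESeq2 Wald test, 808 with the replicate block and 437 (without BM sorted 3) to 1612 with a library left out. Sorting gave 978 calls (749 to 1173 with a library left out), but its 26 higher ones became 63 with upper quartile scaling, 155 with the DESeq2 Wald test, 118 with only the groups compared and 6 (without BM nonsorted 1) to 67 (without BAC depleted 1) with a library left out. Depletion gave 5863 calls, but 3556 with only the groups compared and 4379 to 5990 with a library left out. BM nonsorted minus BAC nondepleted gave 4980, but 2949 (without BM nonsorted 2) to 6054. Has1, Has3 and Hapln3, at under 70 counts per library, and Hapln1 in marrow are limited by depth.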

Other observations

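Genes near Vcan and Hapln3 in the RefSeq gene order were looked at after that order was known. Acan, on 1 side of Hapln3, is described with the matrix genes above. Xrcc4, a DNA repair gene beside Vcan, was lower in BM sorted than in BAC depleted (-0.99 ± 0.13, adjusted p = 0.000293) and lower in BM nonsorted than in BAC nondepleted (-0.50 ± 0.13, 0.0173), whereas Vcan was higher in both. Tmem167, in the same list of neighbours but not directly beside Vcan in that order, went the way of Vcan. It was at 81.1, 99.4 and 103 CPM in BM sorted, against 53.5, 70.3 and 65.2 CPM in BAC depleted. The unpurified values were 103, 92.2 and 92.7 CPM in BM nonsorted, against 66.0, 72.0 and 75.3 CPM in BAC nondepleted. Mfge8, which encodes a secreted bridge between dying cells and phagocytes and lies beside Hapln3, fell on depletion (-1.39 ± 0.21, 0.000591) and was higher in BM sorted than in BAC depleted (1.38 ± 0.21, 0.000509). The effects of sorting and depletion on Mfge8 differed (1.64 ± 0.29, 0.0102).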
